A study of Arabidopsis thaliana with 18 samples.

Results

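Class III peroxidases are a plant family of secreted haem enzymes, annotated in Arabidopsis thaliana as peroxidase superfamily proteins. The 60 family members described here are given by a list of gene identifiers that was matched to the identifier column of the expression table, which holds 32548 genes, and all 60 were found. They were chosen by the log2 fold changes of hda6 against Col-0 at 22 °C, where the family was higher in hda6, so that difference is given below as a description without a test. RefSeq (TAIR10.1) names a peroxidase in the product of 58 of the 60, and calls the other two root hair specific 18 (RHS18, AT5G22410) and root hair specific 19 (RHS19, AT5G67400). The family list used here has 73 genes in all, and the 13 outside the 60 are described at the end.

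The study measured messenger RNA in whole seedlings of 3 genotypes, aged 7 days and raised on plates of medium at 22 °C under long days (16 h of light). Col-0 is the laboratory wild type, sant-null is a quadruple mutant of SANT1/2/3/4, genes for SANT domain proteins, and hda6 is a line from chemical (EMS) mutagenesis altered in the histone deacetylase gene HDA6. Each genotype was harvested either unheated at 22 °C or after 1 h at 37 °C, which makes 6 groups of 3 libraries. The study addressed the part of SANT1/2/3/4 in transcription at high temperature. The labels name no allele, and leave it unsaid if the 3 libraries behind each group were grown apart. The p-values thus reflect spread among libraries that may be technical. Transcript levels are given as FPKM (counted fragments scaled by gene length and by the total of the library) in 1 column per group, which is the authors' mean of the group and carries no SD. Overlap between single libraries can therefore not be judged. Each log2 fold change below carries its standard error (SE), and a gene was called at an adjusted p under 0.05. The normalised counts (baseMean) summed over all genes came to between 20718679 and 23188234 per library across the 5 deposited comparisons. The median member had a baseMean of 274 where hda6 was set against Col-0 at 22 °C, and one of 72.4 at 37 °C. The leaf genes for light-harvesting and rubisco proteins summed to between 20369 and 27167 FPKM over the groups, and 8 root markers to between 156 and 1114 FPKM, with none of either list at 0.

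These enzymes are secreted to the cell wall, where they use hydrogen peroxide to oxidise phenolic compounds. In the wall they can cross-link lignin, suberin and structural proteins, which stiffens it, or produce reactive oxygen species, which loosen it. In roots they are known for the lignin of the Casparian strip, the seal around each endodermal cell, and for the tip growth of root hairs, and in leaves and roots for the oxidative burst that follows contact with microbes. Hydrogen peroxide reaches them largely through NADPH oxidases of the RBOH family, and laccases share with them the polymerisation of lignin.

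The family's transcript was dominated by a few genes, and all 3 genotypes had far less of it after heat on the FPKM scale. The FPKM values of the 60 genes summed in Col-0 to 834, in sant-null to 862 and 1001 in hda6 at 22 °C. At 37 °C the sums were 307, 316 and 392. The median FPKM over all genes fell as well, from 0.918 to 0.314 in Col-0, 1.15 to 0.369 in sant-null and 1.07 to 0.334 in hda6. The sum in hda6 was the highest of the 3 genotypes at either temperature. PRXR1 (AT4G21960) was the most abundant member in every group, with 238 FPKM in Col-0, 235 FPKM in sant-null and 259 FPKM in hda6 at 22 °C, and 84.9, 86.7 and 113 at 37 °C. AT3G32980 came next, with 109 FPKM in Col-0, 107 FPKM in sant-null and 119 FPKM in hda6 at 22 °C, and 63.6, 61.1 and 67.0 at 37 °C. Together these made up 41.5% of the summed FPKM of the family in unheated Col-0 and 48.3% at 37 °C. At least 1 FPKM was reached by 48 members in Col-0 at 22 °C and by 35 at 37 °C, and at least 10 FPKM by 20 and 5. AT3G03670 and AT4G17690 were at or near 0 throughout, at 0.02 FPKM or less.

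**Figure D1:**
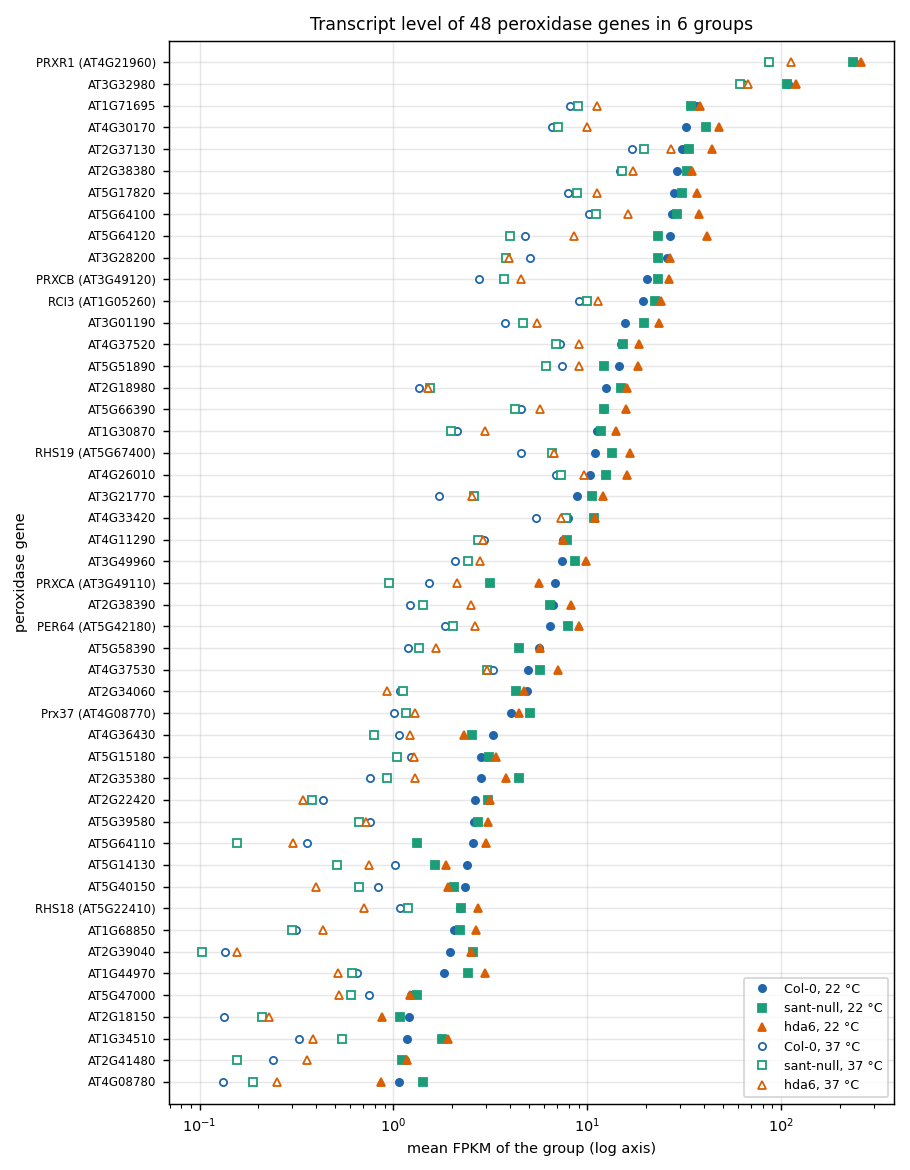
Mean FPKM of each group (log axis) for the 48 peroxidase genes with at least 1 FPKM in Col-0 at 22 °C, with filled symbols for 22 °C and open symbols for 37 °C. PRXR1 and AT3G32980 lie far to the right of the rest, and the open symbols lie to the left of the filled ones of the same genotype for each of the 48 genes. On the FPKM scale 72.5% of all genes tested were called lower with heat in Col-0.

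Of the 60 members, 38 had their highest level in hda6 at 22 °C among the 3 unheated groups, 13 in sant-null and 9 in Col-0. At 37 °C, among 58 members with a single highest group, the counts were 37, 9 and 12. The 22 °C part of this order was used to choose the members and shows no more than that choice.

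In hda6 at 22 °C the excess was spread over many members and small for each. By the authors' deposited table, 41 of 58 members with an adjusted p were above 0 and 17 below, and 23 were called higher and 3 lower, where 6.1% and 4.5% of all genes were. Nothing is read from these counts, since this contrast chose the genes. The median log2 fold change was 0.27, beside 0.01 over all genes tested. Among members of at least 1 FPKM the highest value in the authors' deposited table belonged to AT1G34510 at 0.66 ± 0.22, followed by AT1G44970, a Casparian strip peroxidase, at 0.65 ± 0.17. The lowest in the authors' deposited table was AT4G36430 at -0.56 ± 0.17. No limit on the size of the rise was set in the choice, and the members nearest to no change among these were AT2G41480 (PRX25) and AT3G28200, at -0.01 ± 0.27 and -0.00 ± 0.06 in the authors' deposited table.

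By role, 6 members have been tied to root hairs. Among them AT4G26010 had 10.3 FPKM in Col-0, 12.5 FPKM in sant-null and 16.0 FPKM in hda6 at 22 °C, and 6.89, 7.34 and 9.6 at 37 °C. Root hair gene RHS19 had 10.9 FPKM in Col-0, 13.4 FPKM in sant-null and 16.7 FPKM in hda6 at 22 °C, and 4.54, 6.53 and 6.73 at 37 °C, and AT5G64100 had 27.3 FPKM in Col-0, 29.0 FPKM in sant-null and 37.5 FPKM in hda6 at 22 °C, and 10.1, 11.1 and 16.2 at 37 °C. For these 3 genes hda6 was the highest group at each temperature and Col-0 the lowest. Their log2 fold changes in hda6 at 22 °C were 0.58 ± 0.08, 0.57 ± 0.09 and 0.40 ± 0.06 in the authors' deposited table. RHS18 and AT5G39580 were smaller, at 0.26 ± 0.18 and 0.20 ± 0.16 in the authors' deposited table. At 37 °C neither was highest in hda6. RHS18 then had 1.08 FPKM in Col-0, 1.19 FPKM in sant-null and 0.709 FPKM in hda6, and AT5G39580 had 0.754, 0.665 and 0.725. AT1G05240 is also known from root hairs, but its coding sequence is identical throughout to that of its neighbour PRX2 (AT1G05250). Fragments from either cannot be told apart over that stretch, so the levels of 0.0992 and 0.167 FPKM listed for them in Col-0 at 22 °C are uncertain.

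Of the 5 Casparian strip peroxidases, which lay down lignin in the endodermal seal, RCI3 (AT1G05260) had 19.2 FPKM in Col-0, 22.4 FPKM in sant-null and 24.1 FPKM in hda6 at 22 °C, and 9.02, 9.95 and 11.4 at 37 °C. PER64 (AT5G42180) had 6.43 FPKM in Col-0, 7.99 FPKM in sant-null and 9.01 FPKM in hda6 at 22 °C, and 1.84, 2.03 and 2.65 at 37 °C, and PRX72 (AT5G66390) had 12.2 FPKM in Col-0, 12.1 FPKM in sant-null and 15.7 FPKM in hda6 at 22 °C, and 4.53, 4.22 and 5.69 at 37 °C. In all 3, hda6 had the highest level at both temperatures. In the authors' deposited table the values at 22 °C were 0.28 ± 0.06 for RCI3, 0.44 ± 0.12 for PER64 and 0.32 ± 0.08 for PRX72. AT4G11290 had 7.51 FPKM in Col-0, 7.87 FPKM in sant-null and 7.51 FPKM in hda6 at 22 °C, and 2.93, 2.73 and 2.89 at 37 °C. Its value at 22 °C was -0.05 ± 0.10 in the authors' deposited table. AT1G44970 had 1.82 FPKM in Col-0, 2.41 FPKM in sant-null and 2.96 FPKM in hda6 at 22 °C. At 37 °C its levels were 0.652, 0.612 and 0.518, lowest in hda6.

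Of the other lignin peroxidases, PRX71 (AT5G64120) was among the most raised members, with 26.7 FPKM in Col-0, 23.2 FPKM in sant-null and 41.2 FPKM in hda6 at 22 °C, and 4.74, 3.99 and 8.5 at 37 °C. The lignin gene AT4G33420 had 7.92 FPKM in Col-0, 10.8 FPKM in sant-null and 11.0 FPKM in hda6 at 22 °C, and 5.45, 7.74 and 7.29 at 37 °C, and AT5G51890, known from xylem vessel cells, 14.5 FPKM in Col-0, 12.2 FPKM in sant-null and 18.3 FPKM in hda6 at 22 °C, and 7.42, 6.12 and 9.04 at 37 °C. Their values in hda6 at 22 °C were 0.58 ± 0.06, 0.42 ± 0.09 and 0.29 ± 0.08 in the authors' deposited table. PRX52 (AT5G05340), a lignin gene of low level here, went the other way at -1.63 ± 0.42 in the authors' deposited table, from 0.641 FPKM in Col-0 to 0.216 in hda6. Among the oxidative burst and defence members, PRXCB (AT3G49120), which helps to produce the burst of reactive oxygen at the cell surface, had 20.3 FPKM in Col-0, 23.0 FPKM in sant-null and 26.4 FPKM in hda6 at 22 °C, and 2.77, 3.72 and 4.54 at 37 °C. AT2G37130 had 30.7 FPKM in Col-0, 33.3 FPKM in sant-null and 44.0 FPKM in hda6 at 22 °C, and 17.0, 19.7 and 27.1 at 37 °C. In the authors' deposited table PRXCB was at 0.33 ± 0.06 and AT2G37130 at 0.47 ± 0.05, while PRXCA (AT3G49110), the neighbour of PRXCB, was at -0.32 ± 0.11.

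No library of hda6 or Col-0 at 37 °C entered the choice of members, but the choice still bears on the comparison at 37 °C. Among all genes tested at both temperatures, 1289 were called higher in hda6 at 22 °C, and 1172 of these were above 0 at 37 °C. A family chosen as higher at 22 °C may thus exceed the share of all genes at 37 °C through that choice. The counts below therefore describe the members at 37 °C and cannot show if the family stands apart from other genes. In hda6 at 37 °C, 20 of 57 members tested were higher than in Col-0 and 3 lower in the authors' deposited table (Wald test, Benjamini-Hochberg adjusted p under 0.05). Over all genes 9.06% were called higher and 9.41% lower. With p adjusted anew among genes of at least 1 FPKM, 24 of 36 members were higher and 1 lower, where 13.8% and 14.9% of all such genes were. The members' median was 0.41, beside 0.01 over all genes tested. Of the 23 members called higher at 22 °C, 16 were called higher again at 37 °C, and nothing is read from this overlap, since the values at 22 °C chose the members.

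AT2G38390 rose most at 37 °C among called members of at least 1 FPKM, from 1.22 FPKM in Col-0 to 2.51 in hda6, at 1.04 ± 0.21 (adjusted p = 1.54e-05) in the authors' deposited table. Its neighbour AT2G38380, whose coding sequence is 90.6% identical, was at 0.24 ± 0.07 (adjusted p = 0.0122) in the authors' deposited table. PRX71 was at 0.84 ± 0.14 (adjusted p = 2.47e-08) and PRXCB at 0.72 ± 0.14 (adjusted p = 8.92e-06) in the authors' deposited table. AT2G37130 was at 0.68 ± 0.06 (adjusted p = 1.13e-24) in the authors' deposited table. The most abundant member, PRXR1, was at 0.41 ± 0.04 (adjusted p = 8.34e-26) at 37 °C in the authors' deposited table, against 0.07 ± 0.03 at 22 °C. AT1G71695 had a like pattern, with 0.01 ± 0.06 at 22 °C and 0.47 ± 0.09 (adjusted p = 1.48e-06) at 37 °C in the authors' deposited table. The difference between the temperatures was not tested for these, because it contains the contrast that chose the members.

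Of the 6 root hair members, 3 rose and 0 fell, with AT5G64100 at 0.68 ± 0.08 (adjusted p = 4.59e-14), RHS19 at 0.57 ± 0.12 (adjusted p = 6.66e-05) and AT4G26010 at 0.49 ± 0.11 (adjusted p = 8.06e-05) in the authors' deposited table. RHS18 was at -0.61 ± 0.31 (adjusted p = 0.161) in the authors' deposited table. Of the 5 Casparian strip members 2 rose, RCI3 at 0.34 ± 0.10 (adjusted p = 0.00361) and PRX72 at 0.33 ± 0.12 (adjusted p = 0.0374) in the authors' deposited table. PER64 was at 0.51 ± 0.20 (adjusted p = 0.0548) in the authors' deposited table and did not pass, and AT1G44970, the highest of the group at 22 °C, was at -0.31 ± 0.39 (adjusted p = 0.676). Of the 8 other lignin members 2 rose, PRX71 and AT4G33420, the latter at 0.42 ± 0.11 (adjusted p = 0.00146) in the authors' deposited table. PER4 (AT1G14540) fell in this group, at -2.66 ± 0.81 (adjusted p = 0.00843) in the authors' deposited table, from a low level of 0.315 FPKM in Col-0 to 0.0489 in hda6. The other members that fell were AT3G28200 at -0.36 ± 0.12 (adjusted p = 0.0262) and AT5G40150 at -1.07 ± 0.37 (adjusted p = 0.0253) in the authors' deposited table. Of 4 oxidative burst and defence members tested, PRXCB and AT2G37130 rose and none fell.

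**Figure D2:**
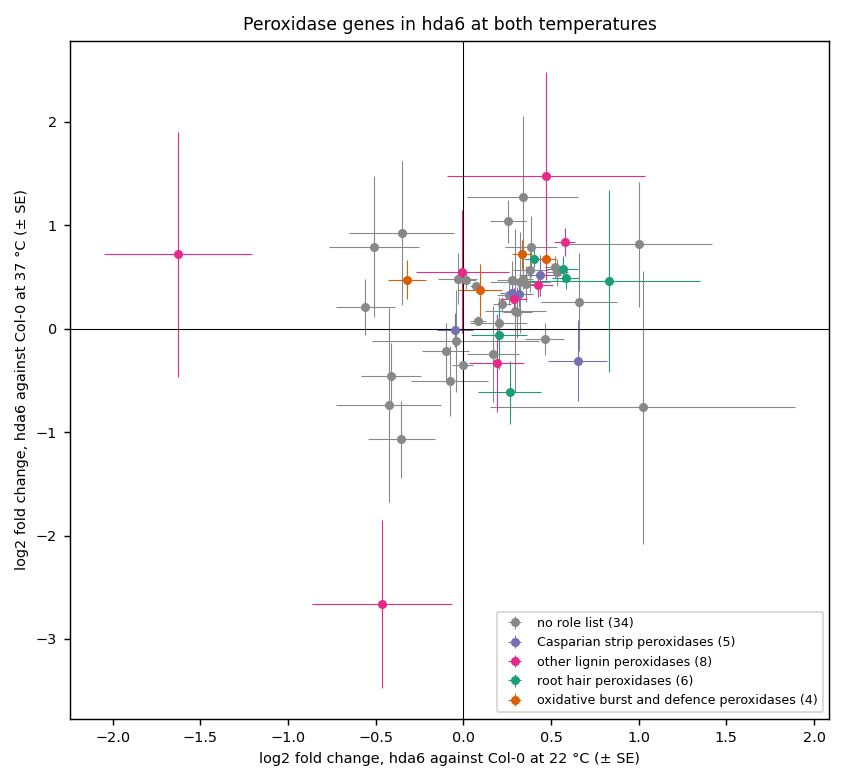
Log2 fold change of hda6 against Col-0 at 22 °C (horizontal axis) and at 37 °C (vertical axis) with standard errors, for 57 peroxidase genes with an adjusted p in both deposited tables, coloured by role. Of the 41 genes above 0 at 22 °C, 34 (82.9%) were above 0 at 37 °C, beside 66.5% over all genes, and PER4 lies lowest. Nothing is read from this share, since the values at 22 °C chose the members.

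Some root transcripts other than peroxidases also rose in hda6. These and the other gene lists below were chosen with earlier results of these data known. Their counts are thus a description and cannot show if a list stands apart from other genes. Over all genes 6.1% were called higher and 4.5% lower in hda6 at 22 °C, and 9.06% and 9.41% at 37 °C. Of 11 factors that build the Casparian strip, 6 rose and 0 fell at 22 °C, and 7 rose and 0 fell of 10 tested at 37 °C in the authors' deposited table. The scaffold gene CASP1 (AT2G36100) had 12.9 FPKM in Col-0, 15.0 FPKM in sant-null and 17.4 FPKM in hda6 at 22 °C, and 7.45, 8.54 and 11.8 at 37 °C, and was at 0.39 ± 0.10 (adjusted p = 0.00165) and 0.67 ± 0.12 (adjusted p = 4.60e-07) at the 2 temperatures in the authors' deposited table. CASP5 (AT5G15290) was at 1.02 ± 0.28 (adjusted p = 0.00563) and 0.98 ± 0.34 (adjusted p = 0.0237) in the authors' deposited table. Of 9 root hair markers, 5 rose at 22 °C and 2 at 37 °C with no fall, led by the wall protein gene PRP3 (AT3G62680) at 0.57 ± 0.11 (adjusted p = 6.43e-06) and 0.77 ± 0.16 (adjusted p = 2.04e-05) in the authors' deposited table. Of 8 root markers, 3 rose at 22 °C and 4 rose and 0 fell of 7 tested at 37 °C, with the root glucosidase gene PYK10 (AT3G09260) at 0.32 ± 0.03 (adjusted p = 1.59e-21) and 0.66 ± 0.04 (adjusted p = 3.81e-71) in the authors' deposited table. Of the green shoot markers at 22 °C, 0 rose and 8 fell of 9 in the authors' deposited table, and 2 rose and 1 fell of 9 at 37 °C.

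Summed FPKM puts these lists side by side. Relative to Col-0 at the same temperature, the peroxidases summed to 1.2 times the level in hda6 at 22 °C and 1.28 times at 37 °C. The 8 root markers were at 1.29 and 1.54 times, the Casparian strip factors at 1.38 and 1.55 times, the root hair markers at 1.44 and 1.5 times, and the green shoot markers at 0.914 and 1.04 times. The peroxidase value at 22 °C comes from the contrast that chose the members, and that choice also bears on 37 °C. Nothing is therefore read from the place of the peroxidases among these lists. PRXR1 and AT3G32980 made up 37.7% of their sum in hda6 at 22 °C. Nearly all of the root marker sum is PYK10, with 826 of 862 FPKM in Col-0 at 22 °C. No root, root hair or green shoot marker was at 0 in any group. The part of these markers in the peroxidase result was not tested, and in whole seedlings more root tissue and more RNA per root cell cannot be told apart. Other genes of the lignin pathway gave these counts. Of 18 genes of monolignol synthesis, which makes the substrates of lignin, 2 rose and 1 fell in hda6 at 22 °C and 7 rose and 1 fell at 37 °C in the authors' deposited table, with medians of 0.03 and 0.15. Among 17 laccases 4 rose at 22 °C, LAC11 (AT5G03260) at 0.44 ± 0.09 (adjusted p = 7.21e-05) in the authors' deposited table, and at 37 °C 1 rose and 1 fell of 16 tested. Of 8 RBOH oxidase genes tested at 22 °C, RHD2 (AT5G51060), the oxidase of root hairs, rose at 0.49 ± 0.11 (adjusted p = 2.96e-04) and RBOHD (AT5G47910), the oxidase of the immune burst, fell at -0.21 ± 0.07 (adjusted p = 0.0238) in the authors' deposited table. At 37 °C RBOHD fell, at -0.32 ± 0.10 (adjusted p = 0.0105), and RHD2 was at 0.10 ± 0.29 (adjusted p = 0.885) in the authors' deposited table. UPB1 (AT2G47270), a repressor of peroxidase genes in the root, was at 0.35 ± 0.23 (adjusted p = 0.415) and 0.40 ± 0.44 (adjusted p = 0.622) at 22 °C and 37 °C in the authors' deposited table. KUA1 (AT5G47390), also known as a repressor of peroxidase genes, was at -0.15 ± 0.08 (adjusted p = 0.288) and -0.72 ± 0.18 (adjusted p = 9.28e-04) in the authors' deposited table.

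**Figure D3:**
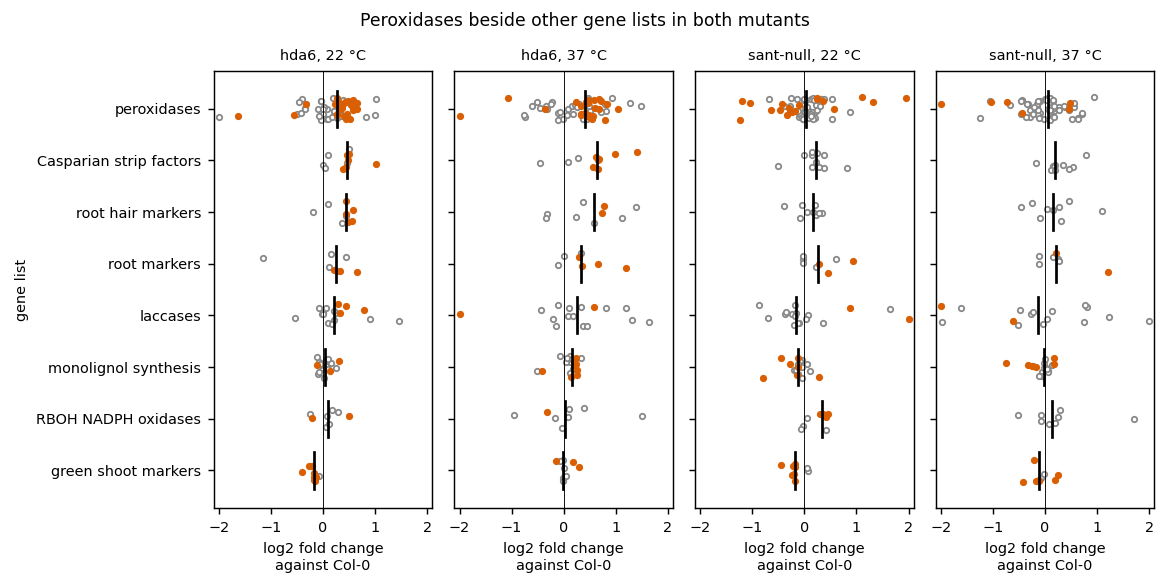
Log2 fold change against Col-0 in each mutant and temperature for the peroxidases and 7 other gene lists, 1 point per gene, filled where the adjusted p is under 0.05, with a bar at the list's median and values beyond 2 in size drawn at 2. In hda6 the medians of the peroxidases, Casparian strip factors, root hair markers and root markers lie above 0 at both temperatures, and that of the green shoot markers lies below 0.

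In sant-null a few members fell sharply, and the median member was close to Col-0. At 22 °C, 7 of 58 members tested were higher and 11 lower in the authors' deposited table, where 8.82% of all genes were higher and 8.98% lower. The median was 0.03, beside 0.01 over all genes. At 37 °C 2 of 57 were higher and 4 lower, where 4.72% and 4.05% of all genes were. The comparison at 22 °C shares the Col-0 libraries with the one that chose the members, and the comparison at 37 °C does not. On the FPKM scale, which sets Col-0 and sant-null 0.0878 apart from the deposited scale in log2 units at 22 °C, 15 members were higher and 8 lower, where 12.9% and 3.72% of all genes were. At 37 °C that scale gave 5 higher and 3 lower, where 5.66% and 2.65% of all genes were.

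PRXCA, one of the pair of oxidative burst peroxidases, had the lowest value at 22 °C among called members of at least 1 FPKM. It had 6.82 FPKM in Col-0, 3.16 FPKM in sant-null and 5.65 FPKM in hda6 at 22 °C, and 1.53, 0.953 and 2.13 at 37 °C. Sant-null was the lowest group at each temperature. In the authors' deposited table PRXCA was at -1.20 ± 0.12 (adjusted p = 1.08e-21) at 22 °C and -0.73 ± 0.23 (adjusted p = 0.0211) at 37 °C. PRXCB lies next to it on chromosome 3 on the same strand, and its coding sequence is 90.4% identical. Yet PRXCB was at 0.10 ± 0.06 (adjusted p = 0.285) and 0.39 ± 0.14 (adjusted p = 0.0674) in the authors' deposited table, with its level in sant-null above that in Col-0 at both temperatures. On the FPKM scale PRXCB was called higher at both, at 0.18 (Wald test, adjusted p = 0.0134) and 0.43 (Wald test, adjusted p = 0.0335). The sources used here do not say how the authors counted fragments that match both genes.

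A run of 3 peroxidase genes on chromosome 5 also had unequal values in sant-null. Its middle gene AT5G64110 had 2.57 FPKM in Col-0, 1.33 FPKM in sant-null and 2.98 FPKM in hda6 at 22 °C, and 0.357, 0.156 and 0.303 at 37 °C, lowest in sant-null at both temperatures. It was at -1.04 ± 0.18 (adjusted p = 4.03e-07) at 22 °C and -1.25 ± 0.53 (adjusted p = 0.14) at 37 °C in the authors' deposited table. On one side PRX71 was at -0.29 ± 0.07 (adjusted p = 1.49e-04) at 22 °C, and on the other AT5G64100 was at -0.00 ± 0.06 (adjusted p = 0.979) in the authors' deposited table. Coding identity in this run is lower, 68.2% between AT5G64100 and AT5G64110 and 61.1% between AT5G64110 and PRX71. The difference between neighbours was not tested, since their values come from the same libraries.

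The upstream sequences of these 2 runs are shown because neighbours with related coding sequences had different values in sant-null. Each is the 250 bases before the annotated gene start, 5′ to 3′ on the gene's strand, from RefSeq TAIR10.1. Capitals mark a W-box (TTGACC or TTGACT on either strand), the site of WRKY factors of the defence response.
PRXCA (AT3G49110), chr3:18200337-18200586, plus strand: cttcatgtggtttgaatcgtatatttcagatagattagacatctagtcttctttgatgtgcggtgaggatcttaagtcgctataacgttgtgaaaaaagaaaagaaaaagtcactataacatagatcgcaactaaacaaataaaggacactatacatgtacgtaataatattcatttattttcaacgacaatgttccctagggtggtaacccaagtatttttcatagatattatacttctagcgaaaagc
PRXCB (AT3G49120), chr3:18207401-18207650, plus strand: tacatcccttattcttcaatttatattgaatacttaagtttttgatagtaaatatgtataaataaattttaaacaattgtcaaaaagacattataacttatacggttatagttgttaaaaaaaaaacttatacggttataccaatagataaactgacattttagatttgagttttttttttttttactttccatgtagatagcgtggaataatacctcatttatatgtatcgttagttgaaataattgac
AT5G64100, chr5:25652248-25652497, minus strand: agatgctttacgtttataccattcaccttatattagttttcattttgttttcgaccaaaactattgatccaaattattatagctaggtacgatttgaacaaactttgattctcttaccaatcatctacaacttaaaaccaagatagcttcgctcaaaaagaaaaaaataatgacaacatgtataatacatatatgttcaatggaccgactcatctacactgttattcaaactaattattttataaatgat
AT5G64110, chr5:25656068-25656317, minus strand: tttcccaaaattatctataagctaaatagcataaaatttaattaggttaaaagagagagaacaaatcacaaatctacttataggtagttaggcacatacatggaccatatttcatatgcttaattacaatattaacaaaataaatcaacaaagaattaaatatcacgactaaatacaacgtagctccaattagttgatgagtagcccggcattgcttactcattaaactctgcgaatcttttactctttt
PRX71 (AT5G64120), chr5:25661008-25661257, minus strand: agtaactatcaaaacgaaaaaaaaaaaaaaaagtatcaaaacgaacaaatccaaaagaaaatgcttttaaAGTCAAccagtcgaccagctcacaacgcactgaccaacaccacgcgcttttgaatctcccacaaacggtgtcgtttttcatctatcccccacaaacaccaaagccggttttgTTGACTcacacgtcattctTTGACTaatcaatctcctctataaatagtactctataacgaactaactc
Only PRX71, the last of these 5, holds a W-box in this window, and it holds 3. Among all promoters of this length 28.4% hold at least 1, and 30.0% of the 60 members do. Aligned over the window, PRXCA and PRXCB were 48.6% identical, against 90.4% over the coding sequence. A match is only a match of letters, and its absence says nothing about the factor.

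Other members that fell in sant-null at 22 °C included PA2 (AT5G06720, also named PRX53) at -1.23 ± 0.33 (adjusted p = 0.00254), from 0.884 to 0.401 FPKM, in the authors' deposited table. Its neighbour AT5G06730 was at 0.19 ± 0.32 (adjusted p = 0.774) in the authors' deposited table. AT5G14130 fell at both temperatures, at -0.65 ± 0.18 (adjusted p = 0.00297) and -1.05 ± 0.29 (adjusted p = 0.00739) in the authors' deposited table. AT3G28200 did so too, at -0.24 ± 0.06 (adjusted p = 4.31e-04) and -0.44 ± 0.14 (adjusted p = 0.033) in the authors' deposited table, but on the FPKM scale it did not pass at 37 °C, at -0.39 (Wald test, adjusted p = 0.0689). AT5G51890, the vessel gene, was at -0.34 ± 0.08 (adjusted p = 5.65e-04) at 22 °C in the authors' deposited table, where it was higher in hda6. PER4 fell at 37 °C in sant-null as in hda6, at -2.21 ± 0.69 (adjusted p = 0.0212) in the authors' deposited table, to 0.0691 FPKM. Both PER4 values are taken against the same Col-0 libraries at 37 °C, with 0.315 FPKM.

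Of the members that rose in sant-null, AT4G33420 was higher at both temperatures, at 0.36 ± 0.09 (adjusted p = 5.36e-04) and 0.46 ± 0.11 (adjusted p = 3.61e-04) in the authors' deposited table. At 37 °C AT4G33420 and RHS19 were the members called higher in both mutants, each mutant being set against the same Col-0 libraries. AT2G35380 was at 0.57 ± 0.14 (adjusted p = 6.14e-04) at 22 °C in the authors' deposited table, from 2.82 to 4.45 FPKM. AT4G30170 and AT3G01190 rose at 22 °C, at 0.25 ± 0.05 (adjusted p = 5.71e-05) and 0.25 ± 0.07 (adjusted p = 0.00321) in the authors' deposited table. RHS19 rose at 37 °C, at 0.49 ± 0.12 (adjusted p = 0.00205) in the authors' deposited table. AT5G58400 and AT5G19890 had larger values at 22 °C, 1.95 ± 0.73 (adjusted p = 0.0446) and 1.31 ± 0.37 (adjusted p = 0.00344) in the authors' deposited table, from levels of 0.0614 and 0.286 FPKM in Col-0. AT5G58390, the neighbour of AT5G58400, was called lower at 22 °C, at -0.42 ± 0.11 (adjusted p = 0.00233) in the authors' deposited table. This pair had the widest spread of the 9 runs of neighbours at 22 °C, 2.37 log2 units. Of the 5 Casparian strip peroxidases 0 were called at either temperature in the authors' deposited table, with an unadjusted Wald p under 0.05 for 1, RCI3, at 22 °C and for 0 at 37 °C. On the FPKM scale RCI3 alone was called, higher at 22 °C, at 0.22 (Wald test, adjusted p = 0.00823). Of the factors that build the Casparian strip 0 of 11 tested were called at 22 °C and 0 of 10 at 37 °C in the authors' deposited table. Their unadjusted Wald p was under 0.05 for AT1G61590 and MYB36 (AT5G57620) at 22 °C, and for AT1G61590 and CASP5 at 37 °C. Of 8 root markers 3 rose at 22 °C, and 7 of 9 green shoot markers fell in the authors' deposited table. Relative to Col-0, root markers summed to 1.05 and 1.18 times the FPKM level in sant-null at 22 °C and 37 °C, root hair markers to 1.22 and 1.1 times, Casparian strip factors to 1.2 and 1.21 times, and the peroxidases to 1.03 times at either temperature. The part of these markers in the sant-null values was not tested. Of 8 RBOH genes tested 4 rose at 22 °C in the authors' deposited table, led in size by AT4G25090 at 0.44 ± 0.14 (adjusted p = 0.0123) and RBOHB (AT1G09090) at 0.42 ± 0.14 (adjusted p = 0.0251).

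**Figure D4:**
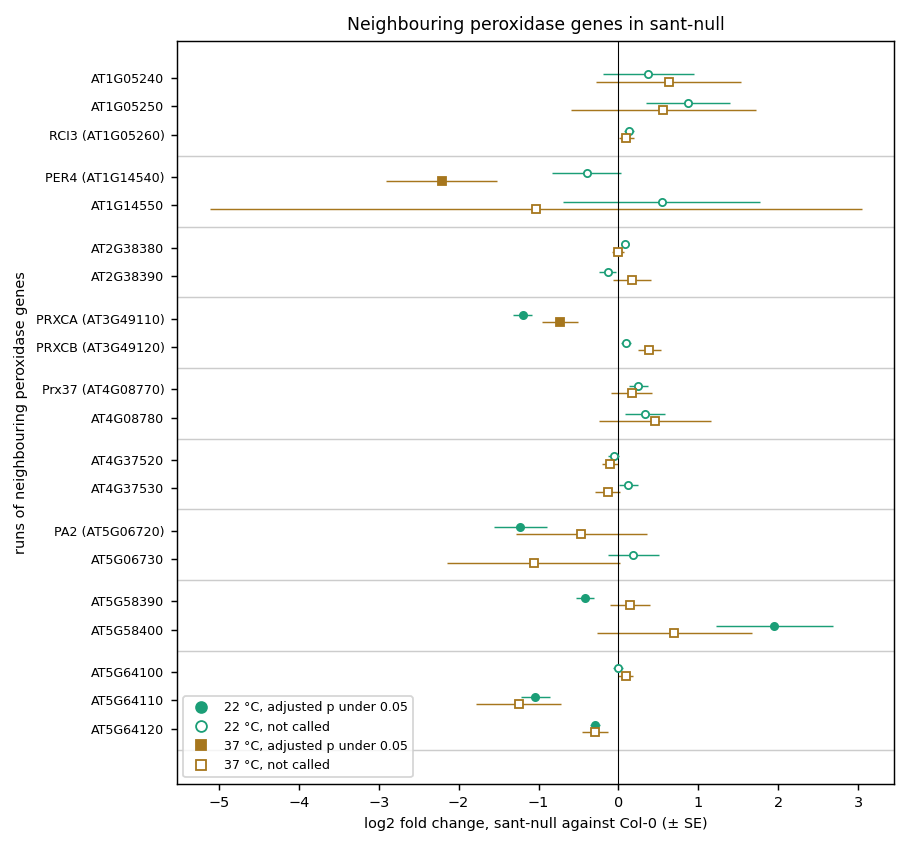
Log2 fold change of sant-null against Col-0 with its standard error for the 20 peroxidase genes that lie in 9 runs of neighbours, at 22 °C (circles) and 37 °C (squares), filled where the adjusted p is under 0.05. PRXCA lies at -1.20 and -0.73 while its neighbour PRXCB lies at 0.10 and 0.39, and AT5G64110 lies below both of its neighbours.

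Sant-null was also set directly against hda6 at 37 °C. Neither group's libraries entered the choice, but hda6 may be the higher here because the members were chosen as higher in it at 22 °C. By a Wald test on the difference of the deposited values, 7 of 57 members were lower in sant-null and 0 higher. Over all genes 2.03% were called lower and 2.44% higher. At an unadjusted p under 0.05, 16 members were lower and 0 higher, where 1147 and 1317 of 20614 genes were. The error used is an upper bound, since both values share the Col-0 libraries. The lowest was PRXCA, with 0.953 FPKM in sant-null and 2.13 in hda6, at -1.21 ± 0.30 (adjusted p = 0.00243). PRX71 was at -1.13 ± 0.21 (adjusted p = 5.47e-06), AT5G51890 at -0.61 ± 0.16 (adjusted p = 0.00715) and AT5G64100 at -0.59 ± 0.13 (adjusted p = 3.11e-04) in the same Wald test. The median member was at -0.33, beside 0.02 over all genes. At 22 °C, where hda6 entered the choice, the median was -0.20 and is not tested.

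One hour of heat lowered most of the family in Col-0. By the authors' deposited table, 36 of 58 members tested fell and 6 rose, where 29.9% of all genes fell and 30.1% rose. The median was -0.81, beside -0.09 over all genes tested. The scale matters here: FPKM, a share of all fragments, puts every gene 1.01 lower in log2 units than the deposited fold change. On the FPKM scale 51 members fell and 0 rose, with a median of -1.82 beside -1.10 over all genes, where 72.5% fell and 6.25% rose. This comparison shares the unheated Col-0 libraries with the one that chose the members.

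Among called members of at least 1 FPKM, AT2G39040 had the lowest value. It fell from 1.97 to 0.135 FPKM, at -2.79 ± 0.40 (adjusted p = 1.92e-11) in the authors' deposited table. AT2G18980 fell from 12.5 to 1.35 FPKM, at -2.20 ± 0.15 (adjusted p = 9.30e-46) in the authors' deposited table. AT2G18150 and AT4G08780 were at -2.20 ± 0.45 (adjusted p = 2.79e-06) and -2.00 ± 0.48 (adjusted p = 8.93e-05) in the authors' deposited table. PRX52 was at -2.78 ± 0.71 (adjusted p = 2.10e-04) from under 1 FPKM in the authors' deposited table. Among oxidative burst genes PRXCB fell from 20.3 to 2.77 FPKM, at -1.87 ± 0.10 (adjusted p = 3.50e-73), and PRXCA was at -1.14 ± 0.16 (adjusted p = 1.22e-12) in the authors' deposited table. PRX71 was at -1.48 ± 0.11 (adjusted p = 2.71e-37) and PRXR1 at -0.48 ± 0.04 (adjusted p = 1.89e-27) in the authors' deposited table.

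On the deposited scale 6 members rose with heat. AT4G33420 was at 0.47 ± 0.11 (adjusted p = 3.24e-05), AT4G26010 at 0.42 ± 0.11 (adjusted p = 2.77e-04) and AT4G37530 at 0.41 ± 0.14 (adjusted p = 0.005) in the authors' deposited table. AT3G32980 was at 0.24 ± 0.05 (adjusted p = 2.65e-05) and AT2G37130 at 0.16 ± 0.07 (adjusted p = 0.0399) in the authors' deposited table. On the FPKM scale these 5 were lower after heat, by 0.54, 0.59, 0.60, 0.77 and 0.85 in the same order in log2 units. AT5G19890 rose, at 1.25 ± 0.48 (adjusted p = 0.0173) in the authors' deposited table, from 0.286 to 0.335 FPKM, and on the FPKM scale was at 0.24 and did not pass (Wald test, adjusted p = 0.644). The Casparian strip peroxidases had a median of -0.42 and 3 of 5 called lower, and the root hair members had a median of -0.22 with 2 of 6 lower and 1 higher by the authors' deposited table. Root hair markers fell in 8 of 9 cases with a median of -1.57 in the authors' deposited table. Laccases fell in 14 of 16 cases, and monolignol genes rose in 9 and fell in 5 of 18 in the authors' deposited table. Of 8 RBOH genes 4 fell and AT1G19230 rose, at 2.43 ± 0.11 (adjusted p = 3.44e-100) in the authors' deposited table, also on the FPKM scale, where it was at 1.42.

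**Figure D5:**
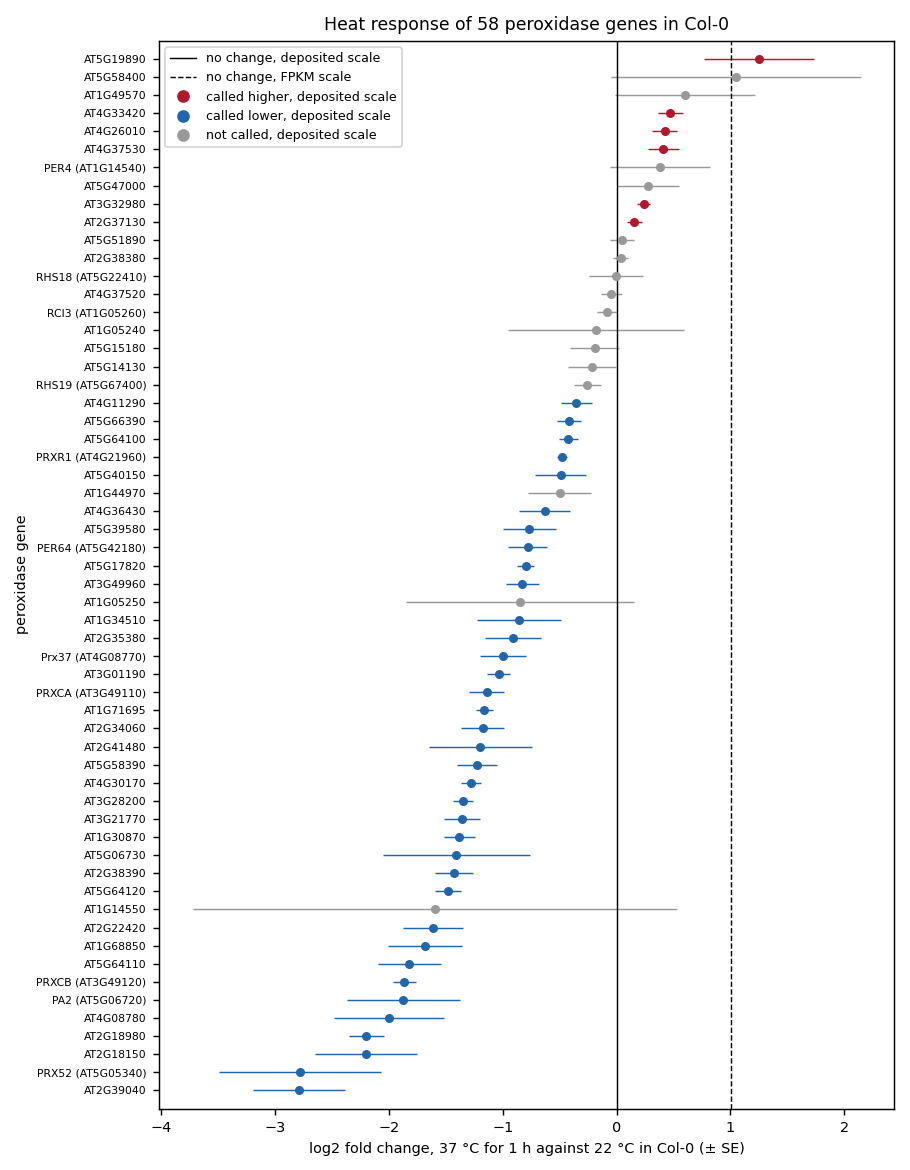
Log2 fold change after 1 h at 37 °C in Col-0 with its standard error for the 58 peroxidase genes with an adjusted p, sorted by value and coloured by call on the deposited scale. The solid line marks no change on the deposited scale and the dashed line, at 1.01, no change in FPKM, and AT5G19890 and AT5G58400 alone lie to the right of the dashed line.

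In sant-null too most members fell with heat on the deposited scale. A Wald test on values derived from the deposited tables called 30 of 57 members lower and 3 higher after heat in sant-null, where 23.8% and 28.5% of all genes were, with a median of -0.79. AT2G39040 and AT2G18980 were at -3.55 ± 0.88 (adjusted p = 1.88e-04) and -2.21 ± 0.25 (adjusted p = 1.94e-18) in that Wald test. AT4G33420, AT2G37130 and AT3G32980 rose, at 0.58 ± 0.14 (adjusted p = 7.85e-05), 0.30 ± 0.08 (adjusted p = 0.00132) and 0.24 ± 0.06 (adjusted p = 4.22e-04) in the same test, and all 3 were lower on the FPKM scale, at -0.48, -0.76 and -0.82. On that scale 52 members fell and 0 rose, where 71.9% of all genes fell and 5.07% rose. The difference in heat response between sant-null and Col-0 was tested by the Wald test itself. It called 0 of 57 members higher and 0 lower, where 0.921% of all genes were called. At an unadjusted p under 0.05, 2 members were higher and 1 lower (5.26%), beside 8.28% of all genes in either direction. In hda6 the heat response, which contains libraries used in the choice, had a median of -0.66 and is given without a test.

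The 13 family genes outside the 60 were of low level, with a highest mean over the groups of 1.92 FPKM for AT3G17070, and AT1G24110 and AT1G77100 at 0 in all 6 groups. In hda6 at 22 °C 1 of 10 tested was higher and 0 lower in the authors' deposited table, with 2 higher and 0 lower at an unadjusted Wald p under 0.05. The gene called was AT4G16270, a peroxidase gene whose level was 0.811 FPKM in Col-0, 1.22 FPKM in sant-null and 1.64 FPKM in hda6 at 22 °C, and 0.297, 0.325 and 0.279 at 37 °C. It was at 0.97 ± 0.27 (adjusted p = 0.006) at 22 °C and -0.12 ± 0.60 (adjusted p = 0.933) at 37 °C in the authors' deposited table. At 37 °C 0 of 6 were higher and 0 lower in hda6 by the Wald test of the authors' deposited table, with 0 and 1 at an unadjusted p under 0.05. In sant-null 0 of 10 were called at 22 °C and 0 of 9 at 37 °C, and 0 passed at an unadjusted p under 0.05 in the authors' deposited table. With heat in Col-0 AT2G43480 was the one of 9 called, at -2.31 ± 0.72 (adjusted p = 0.00288) in the authors' deposited table, from 0.614 to 0.0643 FPKM.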

How the data were processed

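RNA sequencing libraries from 18 seedling samples in 6 groups of 3 were analysed. Per the submitters' processing notes, the tools named are CASAVA, HISAT2 2.2.1, featureCounts 2.0.1 and DESeq2 1.30.1, and the genome build is TAIR10. The authors deposited FPKM values as 1 column per group, and 5 comparison tables. Each table holds, per the file headers, a baseMean, the mean signal of the compared libraries in normalised counts, a log2 fold change with its standard error, a test statistic and the deposited p-value with its adjusted p. The deposited statistic equals the log2 fold change over its error, a score of the Wald test. Values of single libraries were not used here, so that no fit across libraries, no replicate left out and no spread between libraries can be given beyond the deposited standard errors. The sources used here do not say how fragments that match several genes were counted, or whether strand was used.

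Deposited log2 fold changes and adjusted p values were taken as given, over all genes with an adjusted p, at a threshold of 0.05. Heat in sant-null, sant-null against hda6 at 37 °C and the difference in heat response were derived from 2 or 3 deposited tables as sums and differences of log2 fold changes. Their errors came from the summed squared errors of the mutant tables, with a Wald test and Benjamini-Hochberg adjustment over all genes with an adjusted p in each table used (scipy 1.17.1, pandas 2.3.3). The derived test was run on simulated tables with independent errors of the deposited size and known changes; errors shared through Col-0 were not simulated. The FPKM scale adds to each log2 fold change the median difference between the log2 ratio of mean FPKM and the deposited value, among genes of at least 1 FPKM.

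All 60 members and all 32548 identifiers were matched to RefSeq (TAIR10.1), from which gene names, coding sequences and the 250 bases before each gene start were read (Biopython 1.88); the deposited files hold no coordinates. Coding identity is a pairwise alignment of the RefSeq coding sequences. The members, the role lists and the other gene lists were chosen with earlier results of these data known. Named genes were drawn from the role lists, the 10 most abundant members and the runs of neighbouring genes. Others came from the 5 highest and 5 lowest called members of at least 1 FPKM in each comparison. In the contrast that chose the members, these were the 10 highest and those below 0. Of the other lists, they were the called genes at either end. Not every gene of these sets is named. AT1G71695 and a few others were named after their values were seen.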

Additional observations from a re-analysis of the deposited data

How the results depend on the processing

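No paired analysis was possible because the tables used here hold no values of single libraries, and for the same reason the planned fits without each replicate were not run. The scale moved 5 of 14 counts. On the FPKM scale the members called higher became 15 in sant-null at 22 °C (7 on the deposited scale), 5 in sant-null at 37 °C (from 2), 0 with heat in Col-0 (from 6) and 0 with heat in sant-null (from 3), and those lower with heat in sant-null became 52 (from 30). Heat reversed sign on the FPKM scale in Col-0 for AT2G37130 at -0.85, AT3G32980 at -0.77, AT4G26010 at -0.59, AT4G33420 at -0.54 and AT4G37530 at -0.60, and in sant-null for AT2G37130 at -0.76, AT3G32980 at -0.82 and AT4G33420 at -0.48. With genes of at least 1 FPKM alone, members lower in hda6 at 37 °C became 1 (from 3) and members higher in sant-null at 22 °C became 4 (from 7); fewer genes were tested. With the summed squared errors halved, as for groups of equal variance, 16 members were lower in sant-null than in hda6 at 37 °C (from 7) and 5 higher with heat in sant-null (from 3). The other counts stayed within 1.5 times, and so did all 14 when members with a coding identity of 90% or more were left out, an alternative chosen after seeing the data. Standard errors of the members ran from 0.04 to 2.63 log2 units in hda6 at 37 °C, so that for the lowest members moderate changes were not detectable at this depth.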

Other observations

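Short motifs were counted in the 250 bases before the gene start, on both strands. The heat shock element core GAANNTTC stood in 2 of the 60 peroxidases (3.33%), beside 9.55% of 27438 promoters of all genes. The G-box CACGTG stood in 1 of 60 (1.67%), beside 6.49% of all. These are matches of letters in a short window, given without a test.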
